A study of Mus musculus with 4 samples.

Results

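Intronic B1 sites are positions in B1 repeats, inside introns, where some RNA reads carried G in place of a genomic A. Such sites were taken from the table of variant positions in mouse endothelial cells (ECs). Sites were selected on their annotation (a B1 repeat of the Alu family, in an intron) and on their measured reads, since at least 1 of 4 libraries had to meet the limits of the study. These were a depth of 5 reads or more, 3 or more of them altered, and a share of altered reads, the editing rate, from 0.05 to 0.95. These choices gave 3039 sites of the 24200 that passed in the whole table (12.6%), and of 48729 listed intronic B1 positions. They lay in 2092 B1 elements of 1260 host genes on 21 chromosomes, with a median element length of 140 bases. Sites of 1 element share reads, and are not independent.

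The cells came from the lungs of 2 male inducible ADAR1 KO mice (i-KO) of strain C57/BL6, whose labels call the knockout EC-specific, aged 2 weeks and from separate litters, named EC1 and EC2. In every cell the ADAR1 gene carried loxP sites, and the cultures had been selected with CD31 and ICAM-2 antibodies. One culture of each mouse received 4-OH-tamoxifen (TM), which activates Cre and deletes part of ADAR1, and the other stayed untreated (CON), which gave 2 libraries per group, each named by its mouse and treatment. Among the 4 libraries none came from TM-treated cells without floxed alleles, so that the deletion and the drug itself cannot be told apart in them. The promoter that drives the inducible Cre is not given in the sources used here. All rows of the count tables, reads outside genes included, summed to 133078922 (CON) and 131796753 (TM) in EC1 and to 143534442 and 207323870 in EC2.

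ADAR1 converts adenosine to inosine in double-stranded RNA, and inosine is read as guanosine by reverse transcriptase. B1 is an abundant short interspersed element of the mouse genome, related to the Alu repeats of humans and derived from the RNA of the signal recognition particle. When 2 copies lie in one transcript in opposite orientation, their RNA can fold back into a long double helix, which is both a substrate of ADAR1 and, when unedited, a ligand of the cytoplasmic sensor MDA-5. Introns hold most B1 copies in genes, and their RNA is seen mainly in unspliced or retained transcripts.

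Genomic sequence was read from GENCODE vM21 transcripts, which cover few introns. Shown here are 4 elements covered whole that held 6 or more members, with the inverted partner of one of them, because they carry dense editing and because the Slc22a15 pair shows the arrangement that can fold. Each is written 5′ to 3′ along the RNA of the host gene (mm10), with T for U, and capitals mark the adenines that are members.
Slc22a15, chr3:101921712-101921851, minus strand, B1 antisense: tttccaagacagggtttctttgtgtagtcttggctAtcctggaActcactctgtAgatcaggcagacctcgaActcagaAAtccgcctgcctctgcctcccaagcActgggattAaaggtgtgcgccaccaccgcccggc
Slc22a15, chr3:101921023-101921169, minus strand, B1 sense: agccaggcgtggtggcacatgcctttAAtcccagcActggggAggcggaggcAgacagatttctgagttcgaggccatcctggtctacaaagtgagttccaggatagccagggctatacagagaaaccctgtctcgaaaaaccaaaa
Srcap, chr7:127526648-127526781, plus strand: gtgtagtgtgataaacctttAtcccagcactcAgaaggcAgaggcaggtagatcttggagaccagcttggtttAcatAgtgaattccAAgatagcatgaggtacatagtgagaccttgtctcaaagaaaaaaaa
Pnpla6, chr8:3539392-3539512, plus strand: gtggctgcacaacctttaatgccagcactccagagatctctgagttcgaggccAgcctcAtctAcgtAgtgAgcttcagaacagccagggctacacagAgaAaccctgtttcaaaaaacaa
Lrch3, chr16:32988604-32988736, plus strand: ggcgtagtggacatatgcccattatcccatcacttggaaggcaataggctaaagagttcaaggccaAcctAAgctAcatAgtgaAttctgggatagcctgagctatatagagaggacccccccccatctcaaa
All 5 lie in exons of retained-intron or other non-coding transcripts of their host genes in vM21. Capitals make up 8 of 29 adenines in the antisense Slc22a15 element and 5 of 42 in its partner. They were 7 of 46 in Srcap, 7 of 37 in Pnpla6 and 6 of 41 in Lrch3. The Slc22a15 elements are 542 bases apart. When the 2 printed sequences were folded together with RNAduplex, 126 base pairs formed, and 7 of 8 edited adenines in the first element and 4 of 5 in the second were paired with U. Of the other adenines, 17 of 21 and 24 of 37 were also paired with U.

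More intronic B1 sites met the limits in CON than in TM, by a wide margin in EC1 and a narrow one in EC2. In EC1, 1739 sites passed in CON and 1032 in TM. In EC2 these were 1140 and 1117, and EC2 TM was the library with the most reads. When its reads at the members were thinned at random to 69.2%, a mean of 699.7 sites passed there over 20 draws. Scaled to the reads in the count table (sites per 1e6 reads), the values were 13.1 (CON) and 7.83 (TM) in EC1 and 7.94 and 5.39 in EC2. The CON value was the higher one in both mice, while EC1 TM and EC2 CON were close to each other. Median depth at the passing sites was 17 reads in EC1 CON, EC1 TM and EC2 TM, and 14 in EC2 CON. At 17 reads a rate of 0.294 has a 95% Wilson interval of 0.133 to 0.531, which covers counting error only, so that single sites are imprecise. Of the members, 1845 passed in 1 library, 653 in 2, 287 in 3 and 254 in all 4. Both CON libraries and neither TM library passed at 168 sites, and the reverse held at 72. Split by mouse, 150 sites passed in both EC1 libraries and in no EC2 library, and 112 the other way.

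**Figure D1:**
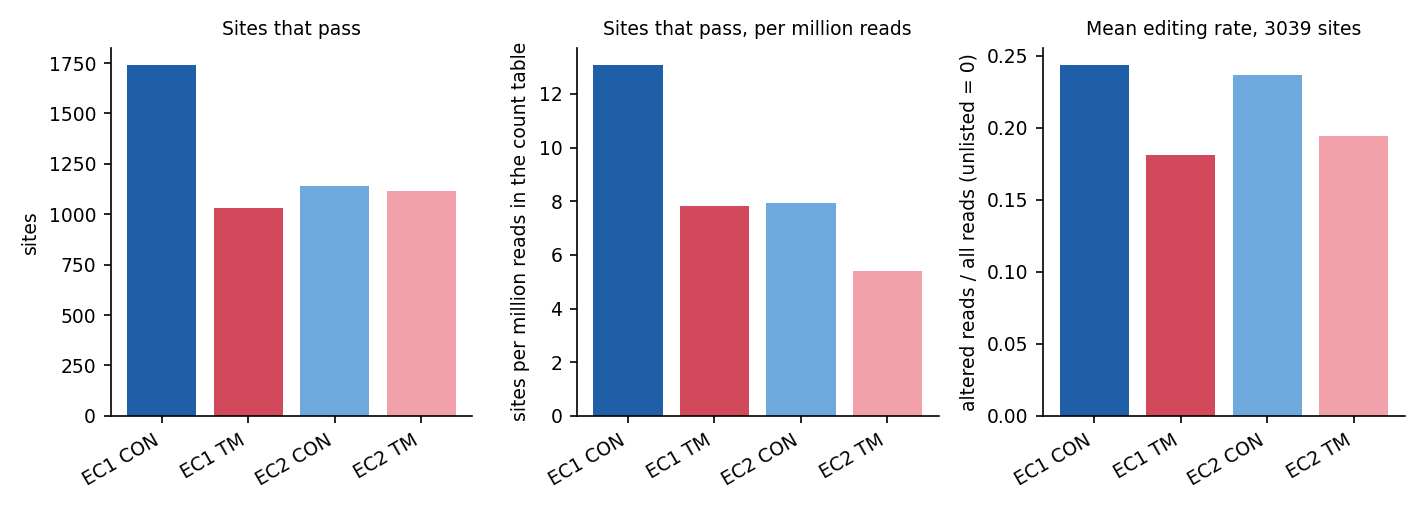
Sites that passed in each library (left), the same scaled to the reads of the count table (middle), and the mean editing rate over the 3039 intronic B1 sites with unlisted sites counted as 0 (right). Bars are single libraries, blue for CON and red for TM, and the mean rate was 0.243 (CON) and 0.181 (TM) in EC1 and 0.237 (CON) and 0.194 (TM) in EC2.

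To ask how editing of these sites differed after ADAR1 deletion, the 2 cultures of a mouse were set against each other. The mean editing rate over the 3039 sites, with an unlisted site counted as 0 as in the deposited table, was 0.243 (CON) and 0.181 (TM) in EC1, which differ by 0.0624. The EC2 rates were 0.237 (CON) and 0.194 (TM), which differ by 0.0426. The mean difference was 0.0525 ± 0.0140 (SD, n = 2 mice). These values describe the sites that the rule chose on the same 4 libraries.

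A library lists a position only where an altered base was called, so an unlisted position may be unedited or uncovered and its depth is unknown. In EC1, CON alone listed 709 members and TM alone 281. In EC2 the numbers were 523 and 493. When the sites unlisted in CON or TM were left out, the EC1 rates were 0.316 (CON) and 0.275 (TM) over 1766 sites, which differ by 0.0409. Those of EC2 were 0.344 and 0.278 over 1656 sites, which differ by 0.0663. The rate was higher in CON at 1078 and in TM at 624 of these sites in EC1, and at 1034 and 556 in EC2. Leaving out unlisted sites thus made the difference smaller in EC1 and larger in EC2, with a mean of 0.0536 ± 0.0180 (SD, n = 2 mice).

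A comparison that the choice of sites did not use was made by choosing sites in one mouse and reading their rates in the other. The 1767 intronic B1 sites that passed in EC2 had mean rates of 0.224 (CON) and 0.181 (TM) in EC1, which differ by 0.0432. The 2204 sites that passed in EC1 had 0.225 (CON) and 0.177 (TM) in EC2, which differ by 0.0481. Restricted to sites listed in both libraries of the mouse being read, the differences were 0.0405 over 1073 sites and 0.0712 over 1183 sites. This restriction was added after seeing the data and uses altered reads of that mouse, so that these values are not a separate check. All 4 differences had the same direction, but an exact sign permutation over 2 mice cannot give a two-sided p under 0.5. Over each library's own passing sites the difference was smaller, with mean rates of 0.325 (CON) and 0.319 (TM) in EC1, and of 0.362 and 0.329 in EC2.

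In the absolute CON minus TM difference, intronic B1 sites lay between B1 sites in 3′ UTRs and other intronic sites. Differences were not scaled to the CON rate. That rate was lower in the B1 sites of 3′ UTRs than in intronic B1, at 0.146 in EC1 and 0.183 in EC2. Median depth at the passing 3′ UTR sites was 44.5 to 76 reads, above that of intronic B1. With unlisted sites as 0, the CON minus TM difference was 0.0778 in EC1 and 0.107 in EC2 for the 738 passing B1 sites in 3′ UTRs. It was 0.0312 and 0.0177 for the 1796 passing sites of intronic B2, the other main mouse SINE. For the 7392 passing intronic sites outside repeats it was 0.00274 and -0.00186. The median rate at their passing sites was 0.5 in every library, against 0.273 to 0.333 for intronic B1. How many of them are genomic variants and not edited positions was not tested, so that their difference may not measure editing. The intronic B1 difference exceeded that outside repeats by 0.0596 in EC1 and 0.0444 in EC2, and minus that of B1 in 3′ UTRs it was -0.0155 and -0.0644. Each of these comparisons reached the smallest two-sided p that an exact sign permutation over 2 mice allows, 0.5. For sites listed in both libraries, the order of the 4 groups was kept within each mouse, but intronic B1 and B2 were close in EC2. By this measure the CON minus TM difference of intronic B2 was 0.0222 in EC1 and 0.0613 in EC2, and intronic B1 exceeded it by 0.0187 and 0.00491, against 0.0311 and 0.0249 with unlisted sites as 0.

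**Figure D2:**
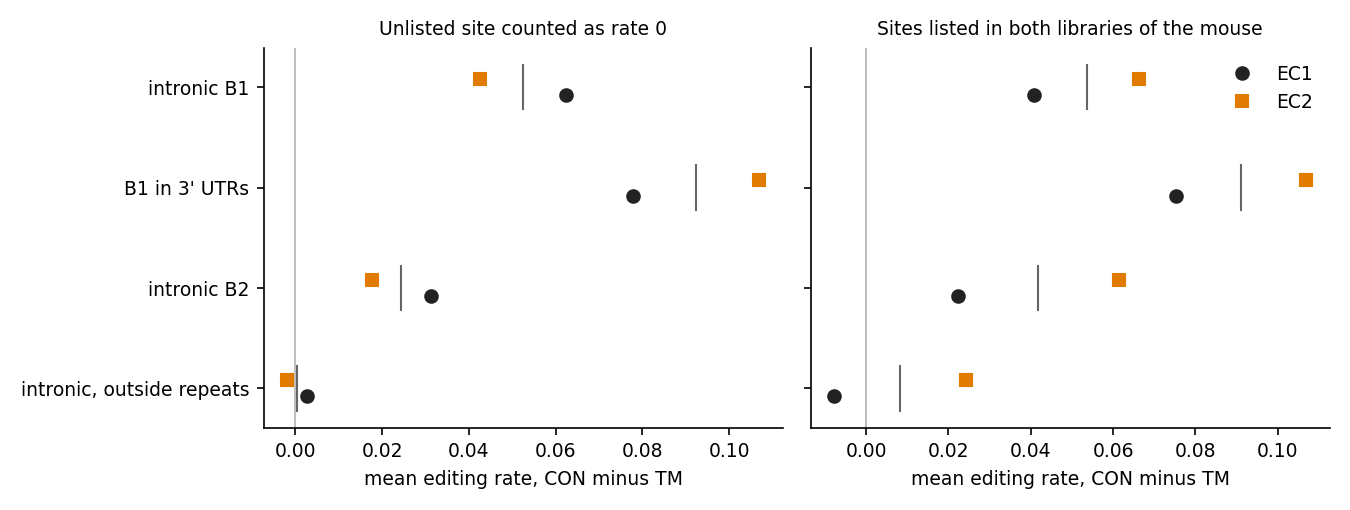
Mean CON minus TM editing rate in EC1 (circles) and EC2 (squares) for intronic B1 sites and 3 other groups, with unlisted sites as 0 (left) or left out (right), and a short vertical line at the mean of both mice. Intronic B1 sites were at 0.0624 and 0.0426 on the left and at 0.0409 and 0.0663 on the right, and intronic sites outside repeats lay between -0.00779 and 0.0243.

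By the study's rule (a rate difference of at least 0.05, with the depth and altered-read limits met in the higher library and a rate there of at most 0.95), 1238 members (40.7%) were CON > TM in EC1 and 831 (27.3%) in EC2. Over all passing sites of the table the shares were 28.7% in EC1 and 25.6% in EC2. The opposite call, CON < TM, was made at 481 members (15.8%) in EC1 and 533 (17.5%) in EC2, against 18.8% and 22.9% of all passing sites. The calls share libraries with the rule for membership and are therefore a description. In EC1, 526 of the CON > TM members (42.5%) were unlisted in TM, and in EC2 260 (31.3%). Among the CON < TM members, 169 (35.1%) and 238 (44.7%) were unlisted in CON.

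Both mice gave CON > TM at 264 members (8.69%, against 7.35% of all passing sites) and CON < TM at 62 (2.04%, against 3.92%). The mice gave opposite calls at 176 (5.79%, against 6.52%). Of the shared calls, 175 CON > TM and 51 CON < TM sites were listed in all 4 libraries, where the shares over all passing sites were 5.34% and 2.43%. The shared CON > TM calls were thus close in frequency to those of all passing sites, and the shared CON < TM calls were less frequent in the members, a difference that was not tested. B1 sites in 3′ UTRs had 226 shared CON > TM calls (30.6%) and 2 CON < TM calls (0.271%). Across the 585 sites that passed in both CON libraries, the rates of the mice correlated with r = 0.740, and across the 450 that passed in both TM libraries with r = 0.722, as a description over sites whose depth differs.

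**Figure D3:**
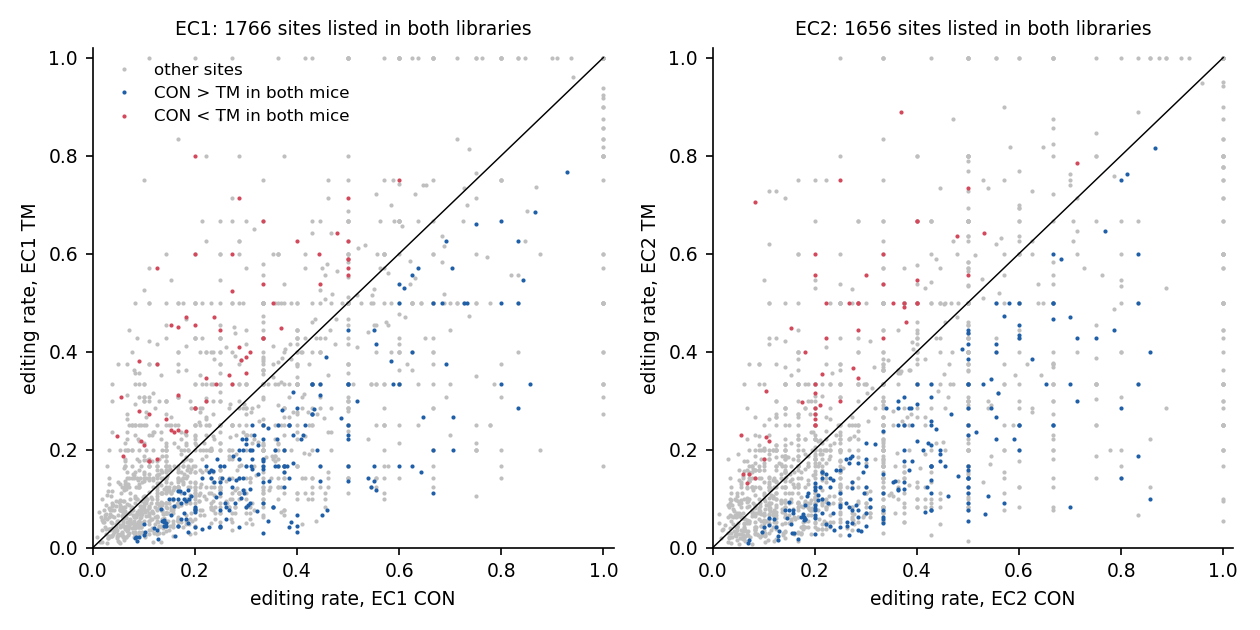
Editing rate in CON (horizontal) against TM (vertical) for every intronic B1 site listed in both libraries of EC1 (1766 sites, left) and EC2 (1656 sites, right), with the line of equal rates. Blue points were CON > TM in both mice and red points CON < TM in both mice, and more points lie under the line than over it, 1078 against 624 in EC1 and 1034 against 556 in EC2.

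Reads were then tested site by site with edgeR's quasi-likelihood test across the whole table, over 20243 sites listed in all 4 libraries at a depth of at least 5. Of these, 935 were members. No site of the table and no member passed a Benjamini-Hochberg adjusted p of 0.05 (0% of all sites tested). At an unadjusted p under 0.05 were 53 members (5.67%), against 3.63% of all sites. Members had to pass limits on the same reads, which the other sites did not, so that these shares and the medians below are a description. DESeq2 on the same columns called 8 sites of the table (0.0395%) and 0 members. The median log2 odds ratio of TM over CON was -0.47 in the members and -0.20 over all sites, and 68.4% of members against 61.4% of all sites had lower odds in TM. Without EC2 CON the medians were -0.40 and -0.39, so that members and all sites lay close together, and without EC1 CON they were -0.54 and 0.04. With the mouse as a block, 141 sites of the table (0.697%) and 2 members passed, both in Fnbp1 and both lower in TM. On simulated reads, edgeR recovered 1 of 200 sites whose odds were changed 4-fold and 80 of 200 changed 16-fold. The changed sites were drawn only from sites of intermediate rate with a depth of at least 20 in all 4 libraries. Of the 935 members tested, 231 reached that depth. The simulation held no mouse effect. A 4-fold change in odds was thus rarely detected at the simulated sites, and detection at lower depths was not simulated.

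Fisher's exact test compared the reads of the 2 libraries of each mouse and not the conditions. It called 50 of 83783 sites (0.0597%) in EC1 and 145 of 87836 (0.165%) in EC2, and 0 members in either. At an unadjusted p under 0.05 were 47 members in EC1 (2.66%, against 0.957% of all sites tested), 89.4% of them with the higher rate in CON. In EC2 there were 69 (4.17%, against 1.38%), 92.8% of them with the higher rate in CON. The members were selected on these reads and the other sites were not, so that neither the shares nor the directions are independent of the choice of members.

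Most elements held a single member. Of the 2092 B1 elements, 1524 held 1 member and 44 held 5 or more, which together held 268 sites. The mean rate was higher in CON than in TM in both mice in 24 of these 44 elements and lower in 5. Over all 2092 elements the numbers were 681 and 223. In 11 of the elements with the most members, 8 had the lower mean rate in TM in EC1, 8 in EC2 and 7 in both mice. The members were chosen on the same reads, so that these counts are a description.

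Lims1, an adaptor protein of focal adhesions, held 9 sites in an element at chr10:58407688-58407839, all listed in all 4 libraries. Their mean rate was 0.181 (CON) and 0.157 (TM) in EC1 and 0.181 (CON) and 0.145 (TM) in EC2. Both CON values were above both TM values, and 0 of the 9 sites were called in the same direction in both mice. Pnpla6, a lysophospholipase of the endoplasmic reticulum, gave 0.181 (CON) and 0.115 (TM) in EC1 and 0.137 (CON) and 0.144 (TM) in EC2 over 7 sites, with no common direction, and 4 of these sites were listed in EC1 TM and 5 in EC2 CON.

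Slc22a15, a solute carrier, and Srcap, a chromatin remodelling ATPase, had lower mean rates in TM in both mice. The antisense Slc22a15 element had a mean rate of 0.139 (CON) and 0.0244 (TM) in EC1 and 0.253 (CON) and 0.0877 (TM) in EC2 over 8 sites. In EC1 TM 2 of the 8 sites were listed, so that its mean rests mostly on unlisted sites counted as 0, and at those 2 the EC1 rates were 0.167 (CON) and 0.1 (TM), and 0.0952 in both. At base 55 of the printed sequence, the rate was 0.353 of 17 reads (CON) and unlisted (TM) in EC1 and 0.357 of 14 reads (CON) and 0.136 of 22 reads (TM) in EC2. In its inverted partner all 5 sites were unlisted in EC1 TM, while in CON their rates were 0.133 to 0.222 in EC1 and 0.143 to 0.3 in EC2, and in EC2 TM at most 0.0769. In both elements of the pair the CON libraries were above the TM libraries. All 5 sites of the partner met the limits only in CON libraries, so that there the choice of members itself favours this direction.

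Srcap held 24 members in 5 elements. In the element at chr7:127520405-127520549 the mean rate over 10 sites was 0.128 (CON) and 0.0933 (TM) in EC1 and 0.195 (CON) and 0.0794 (TM) in EC2. In the printed element it was 0.222 (CON) and 0.1 (TM) in EC1 and 0.231 (CON) and 0.113 (TM) in EC2 over 7 sites. At base 74 of the printed Srcap sequence the rate was 0.45 of 20 reads (CON) and 0.0667 of 15 (TM) in EC1 and 0.292 of 24 (CON) and 0.0333 of 30 (TM) in EC2. In both elements each CON library was above each TM library, with 8 of 10 sites of the first listed in each TM library and, of the 7 of the second, 5 in EC1 TM and 4 in EC2 TM. The test of the site at base 74 gave a log2 odds ratio of -3.44 with an adjusted p of 0.936 (edgeR). This site met the limits only in CON libraries, so that its choice as a member itself favours a higher rate in CON.

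Abhd17b, which removes palmitate from proteins, held 7 sites at chr19:21680248-21680394, with a mean rate of 0.0913 (CON) and 0.0265 (TM) in EC1 and 0.122 (CON) and 0.0353 (TM) in EC2. Fn1 encodes fibronectin, a matrix protein, and held 9 sites at chr1:71635430-71635566. The mean rate there was 0.135 (CON) and 0.0727 (TM) in EC1 and 0.143 (CON) and 0.0961 (TM) in EC2, at a median depth of 67 to 95.5 reads. Cops5, the catalytic subunit of the COP9 signalosome, gave 0.186 (CON) and 0.0344 (TM) in EC1 and 0.0675 (CON) and 0.0128 (TM) in EC2 over 7 sites. In all 3 elements both CON libraries lay above both TM libraries. The 7 Abhd17b sites met the limits only in CON libraries, and most of the Cops5 sites only in EC1 CON. For these sites the choice of members itself favours a higher rate in CON, so that the direction is a description. Of the 7 Abhd17b sites, EC1 TM listed 5 and EC2 TM 4. Of the 7 Cops5 sites, TM listed 2 in each mouse, and CON 7 in EC1 and 3 in EC2.

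Dlst, a subunit of the 2-oxoglutarate dehydrogenase complex of the mitochondrion, differed from these. It held 16 members in 2 elements in opposite orientation, 919 bases apart, at chr12:85124367-85124505 and chr12:85125425-85125570. In the first the mean rate was 0.273 (CON) and 0.327 (TM) in EC1 and 0.251 (CON) and 0.28 (TM) in EC2. In the second it was 0.1 (CON) and 0.245 (TM) in EC1 and 0.139 (CON) and 0.265 (TM) in EC2. Both TM libraries were above both CON libraries in each element. The rate was higher in TM at 13 of the 16 sites in EC1 and 14 in EC2, and 7 were CON < TM in both mice and 0 CON > TM. At chr12:85125513 the rate was 0.0909 of 11 reads (CON) and 0.381 of 21 (TM) in EC1 and 0.105 of 19 (CON) and 0.32 of 25 (TM) in EC2. This site and most others of the second element met the limits only in TM libraries. For them the choice of members itself favours a higher rate in TM, so that the direction is a description. The depths in CON were low, and none of the 13 Dlst sites that could be tested passed (edgeR, unadjusted p under 0.05 at 2 of them). Snx12, a sorting nexin, held 7 members at chrX:101208674-101208818 that were listed almost only in EC2 CON, at a mean rate of 0.332, with 1 site listed in EC1 TM.

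**Figure D4:**
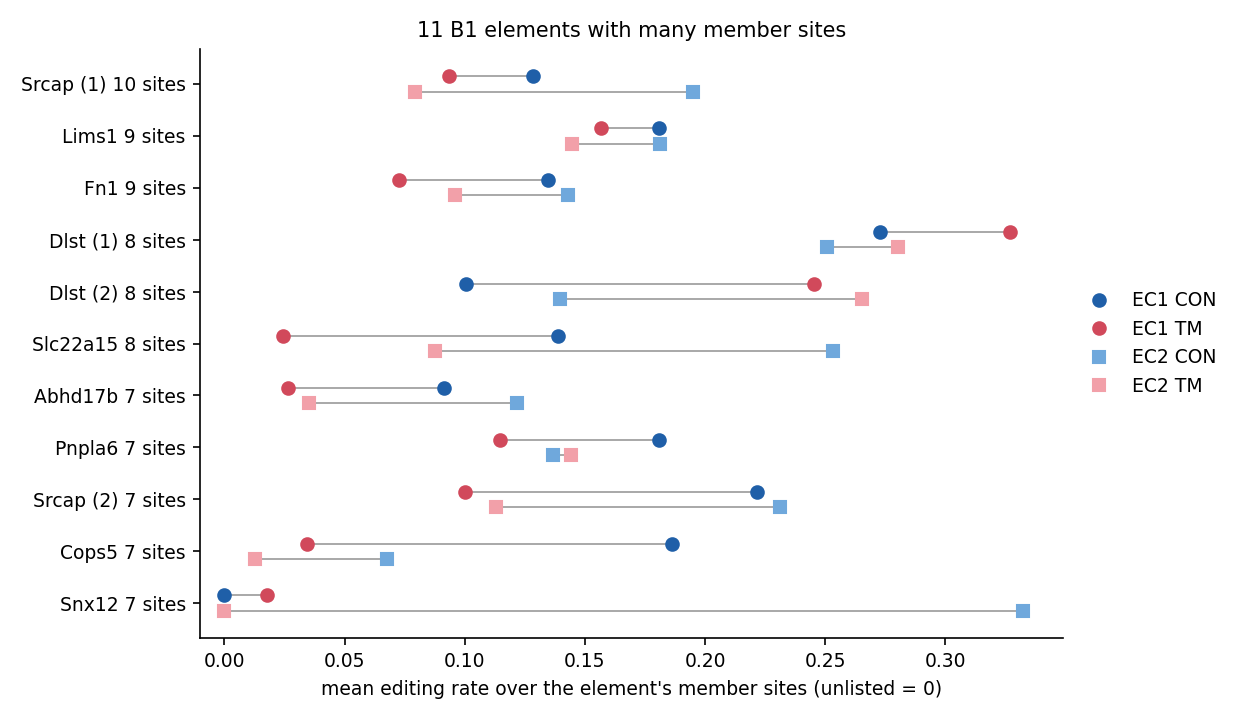
Mean editing rate over the members of 11 of the B1 elements with the most members, one symbol per library (circles EC1, squares EC2, blue CON, red TM), with unlisted sites as 0 and a line joining the libraries of a mouse. Both Dlst elements had the higher rate in TM in both mice (0.1 against 0.245 and 0.139 against 0.265 in the second), and Slc22a15 and both Srcap elements the lower.

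The 2 sites past the blocked test lay 11 bases apart in a B1_Mur4 element of Fnbp1, which binds formins and curved membranes, on the minus strand at chr2:31030869-31030978. At chr2:31030932 the EC1 rates were 0.487 in CON (95% Wilson interval 0.378 to 0.597) and 0.266 in TM (0.181 to 0.372), and the EC2 rates 0.559 (0.458 to 0.656) and 0.316 (0.243 to 0.399). At chr2:31030943 it was 0.289 (0.2 to 0.4), 0.103 (0.0529 to 0.19), 0.39 (0.292 to 0.498) and 0.177 (0.121 to 0.252) in the same order. At both, each CON library was above each TM library, which the choice of these sites by the blocked test favours. The adjusted p was 0.0425 and 0.0451 with the mouse as a block and 1 without it (edgeR). The deposited table calls this an intron, while in vM21 the element lies in the 3′ UTR of a protein-coding Fnbp1 transcript.

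The smallest unadjusted p-values of the main edgeR test were found at 12 sites, all with the higher rate in both CON libraries. Pprc1, a transcriptional coactivator of mitochondrial genes, held 3 of them in 1 element. At chr19:46066271 its rate was 0.552 of 29 reads (CON) and 0.136 of 22 (TM) in EC1 and 0.417 of 12 (CON) and 0.0741 of 27 (TM) in EC2. At chr12:111649474 in Mark3, a kinase that regulates microtubules, it was 0.4 of 15 reads (CON) and 0.0323 of 31 (TM) in EC1 and 0.273 of 11 (CON) and 0.05 of 20 (TM) in EC2. At base 80 of the printed Lrch3 sequence it was 0.344 of 32 reads (CON) and 0.0556 of 36 (TM) in EC1 and 0.235 of 17 (CON) and 0.0714 of 28 (TM) in EC2. At these sites the CON and TM values did not overlap. They were chosen by the smallest p on the same reads. Of the 12 sites, all but those at chr19:46066271 and chr19:46066276 in Pprc1 met the limits only in CON libraries. Neither the separation nor the direction is therefore independent of the choice of sites. Hmox1, heme oxygenase, gave 0.143 (CON) and 0.0448 (TM) in EC1 and 0.129 (CON) and 0.0169 (TM) in EC2. The others were in Srcap, Tnks2, Csnk2a1, Cct3, Cbfb and Fn1, with log2 odds ratios of -3.44 to -2.22 and adjusted p of 0.936 or more.

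The sites with the most reads were named for their depth. In Stab1, a scavenger receptor of endothelial cells, the rate at chr14:31156334 was 0.129 of 256 reads (CON) and 0.0172 of 116 (TM) in EC1 and 0.12 of 184 (CON) and 0.0584 of 137 (TM) in EC2. The CON values were above the TM values, at an adjusted p of 1 (edgeR). At chr14:31156583 in the same gene it was 0.066 of 424 reads (CON) and 0.0625 of 224 (TM) in EC1 and unlisted (CON) and 0.0375 of 267 (TM) in EC2. At chr14:31156571 it was unlisted (CON) and 0.0622 of 241 reads (TM) in EC1 and 0.0823 of 328 (CON) and 0.0849 of 271 (TM) in EC2, where CON and TM were close. Erdr1 on the Y chromosome gave 0.146 (CON) and 0.118 (TM) in EC1 and 0.111 (CON) and 0.145 (TM) in EC2 at 126 to 246 reads, with overlap between the groups. In Ifi204, an interferon-inducible gene, depth at chr1:173761350 was 36 (CON) and 230 (TM) in EC1 and 27 (CON) and 492 (TM) in EC2. The rates there were 0.139, 0.0522, 0.111 and 0.061 in the same order, higher in CON in both mice, with an adjusted p of 1 (edgeR). At chr1:173761361, in the same element, they were 0.0909, 0.032, 0.0833 and 0.0274, also with an adjusted p of 1 (edgeR). The latter site met the limits only in EC1 CON. The Sppl2a element that the study sequenced lies in a 3′ UTR in the deposited table, and is not a member.

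At the edges of the rule, 119 members had a depth of 5 in their deepest passing library, and 109 sites just outside had a depth of 4 with the other limits met. With 3 altered reads at most in any passing library were 1289 members, and 4095 sites just outside had 2. The lowest of the members' highest rates was 0.0508 and the highest rate just outside 0.0494.

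The members were spread over all B1 subfamilies and both orientations. B1_Mus1 held 778 sites, B1_Mus2 507, B1_Mur4 396, B1_Mur2 320, B1_Mur1 318, B1_Mm 295 and B1_Mur3 280, while the older B1F, B1F2 and B1F1 held 67, 49 and 29. The CON minus TM difference was positive in all of them and in both mice, from 0.00239 in B1F in EC1 to 0.152 in B1F2 in EC1. Sites in B1 copies sense to the host gene numbered 1558 and those in antisense copies 1481. Their differences were 0.0631 and 0.0616 in EC1, and 0.0493 and 0.0355 in EC2. Over sites listed in both libraries they were 0.0516 and 0.0303 in EC1, and 0.0671 and 0.0654 in EC2, so that the mouse in which the orientations differed more depended on how unlisted sites were treated.

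Within the 1780 elements of 120 to 160 bases, sites gathered at bases 81 to 100 from the start of the element. This stretch held 766 of 2626 sites, against 168 in bases 1 to 20 and 92 in bases 121 to 140. Neighbouring bases were known for 391 members in vM21 transcripts. On the RNA, the base before the edited adenine was T (U) at 163 sites (41.7%) and G at 21 (5.37%), and at 6808 other adenines of the same elements it was T at 1090 and G at 1813 (26.6%). The base after it was G at 223 members, and at 2483 of the other adenines (36.5%). Passing sites outside repeats had G before the adenine at 18.0% and G after it at 33.2% of 3685 sites. A low share of G before and a high share of G after the adenine is the known preference of ADAR enzymes. G preceded the adenine at 1 of the 48 members with known neighbours that were CON > TM in both mice, and at 0 of the 5 that were CON < TM in both.

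Member elements often had another listed B1 copy in opposite orientation in the same intron. Within 1000 bases, 51.7% of the 2092 elements had one, and 18.1% had one in the same orientation. Of the 24503 listed intronic B1 elements with no member, 21.6% and 14.0% did. Among the 44 elements with 5 or more members the shares were 79.5% and 15.9%. A copy counts here only if it holds a listed variant, so coverage of the intron enters both shares, and its part in them was not tested. The 1742 sites with such an inverted copy had a CON minus TM difference of 0.0718 in EC1 and 0.059 in EC2, and the 1297 others 0.0496 and 0.0204. For sites listed in both libraries it was 0.0452 and 0.083 against 0.0346 and 0.0395, so the sites near an inverted copy had the larger difference in both mice and both ways.

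**Figure D5:**
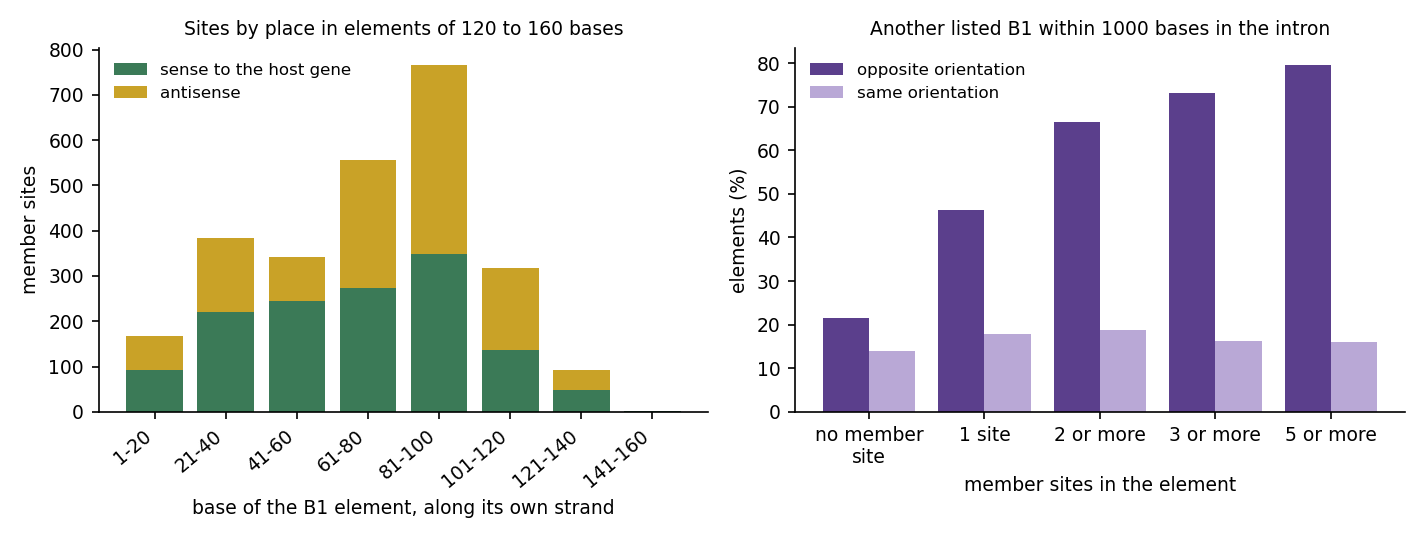
Left, number of members by 20-base bin along the B1 element in 1780 elements of 120 to 160 bases, split by orientation to the host gene, with the highest bar (766 sites) at bases 81 to 100. Right, percent of B1 elements with another listed B1 in the same intron within 1000 bases, by number of members in the element, which rises from 21.6% to 79.5% for copies in opposite orientation and stays between 14.0% and 18.8% for copies in the same orientation.

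The host genes with the most members were Mark3 with 25, Srcap with 24, Lims1 with 18, Dlst, Macf1, Nfat5 and Pnpla6 with 16 each, and Plvap, a protein of endothelial diaphragms, with 15. In Macf1, which links actin and microtubules, the mean rate over 16 sites was 0.136 (CON) and 0.0991 (TM) in EC1 and 0.162 (CON) and 0.0164 (TM) in EC2. Of these 16 sites, 15 (CON) and 8 (TM) were listed in EC1 and 11 and 2 in EC2, so that the EC2 TM mean rests mostly on unlisted sites counted as 0. In Plvap it was 0.153 (CON) and 0.197 (TM) in EC1 and 0.146 (CON) and 0.147 (TM) in EC2, with 1 site CON < TM in both mice and 0 CON > TM. In Nfat5, a transcription factor of the osmotic response, it was 0.0908, 0.0512, 0.0491 and 0.0631 in the same order.

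Gene counts were compared between TM and CON to see whether the host genes changed in expression. Of 973 hosts tested with edgeR, 59 were called (6.06%, against 7.75% of all 7899 genes tested), 46 higher and 13 lower in TM. With the mouse as a block 124 were called (12.7%, against 15% of all genes), and by DESeq2 32 of 1249 (2.56%, against 2.12% of all genes). The median log2 fold change was 0.10 in the hosts and 0.00 over all genes. Counts were few, since 0.823% to 0.858% of the reads in the count tables fell on genes. Between 92.8% and 93.9% were assigned to no feature, and the reason was not tested. The counts of hosts, ISGs and markers given here and below rest on that small share, and may misstate expression. Macf1 was called lower, with counts of 167 (CON) and 44 (TM) in EC1 and 74 (CON) and 92 (TM) in EC2, a log2 fold change of -1.22 ± 0.36 (SE) and an adjusted p of 0.0306 (edgeR). Scaled to a fixed total of gene counts (CPM), its level was 152 (CON) and 40.1 (TM) CPM in EC1 and 60.5 and 51.7 CPM in EC2, and the groups did not overlap. Ifi204 was called higher, with counts of 6, 37, 6 and 117 in the same order and a log2 fold change of 3.21 ± 0.51 (SE, adjusted p = 4.2e-05, edgeR). Dlst had counts of 11, 22, 14 and 37, with a log2 fold change of 0.86 ± 0.50 and an adjusted p of 0.354 (edgeR).

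Some interferon-stimulated genes (ISGs) and genes that edit or sense double-stranded RNA were among the hosts, which numbered 1260 of the 24421 genes in the count table. Their counts carry the limit given above. Of 40 ISGs, 5 were hosts with 8 members in all, and of 34 tested, 30 rose and 0 fell. Among these hosts, Parp9, which modifies proteins with ADP-ribose, had counts of 164 (CON) and 2453 (TM) in EC1 and 259 (CON) and 3630 (TM) in EC2, a log2 fold change of 3.49 ± 0.33 (SE, adjusted p = 6.1e-09, edgeR). The GTPase Gbp2 had 4, 40, 1 and 89 in the same order, a log2 fold change of 4.22 ± 0.60 (adjusted p = 8.1e-06, edgeR). Of 21 genes of the dsRNA list, 3 (Adar, Trim25 and Tbk1) were hosts, with 4 members, and 5 of 16 tested rose and 0 fell. The Adar count rose from 9 in EC1 CON to 47 in EC1 TM and from 16 in EC2 CON to 71 in EC2 TM. It covers the whole gene, and so checks nothing about the deleted part.

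Endothelial markers were present in all libraries, with a summed level, in CPM, of 1760 (CON) and 1634 (TM) in EC1 and 1366 and 1660 in EC2 over 14 genes, Cdh5 being the most abundant. Of 11 tested, 0 rose and 1, the tight-junction gene Cldn5, fell. Markers of leukocytes summed to 100.4, 95.8, 72.8 and 69.7 CPM over 9 genes in the same order, led by Csf1r. Those of fibroblasts and smooth muscle summed to 62.1, 72.1, 58.9 and 50.6 CPM over 8 genes, led by Acta2, and those of lung epithelium to 21.9, 20.1, 12.3 and 16.3 CPM over 8 genes, led by Sftpb. In these 3 lists 0 of the 6 tested genes were called by edgeR. Leukocyte genes at a count of 0 were 4 (CON) and 4 (TM) of 9 in EC1 and 6 and 5 in EC2. The part of these cells in the editing rates was not tested.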

How the data were processed

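The 4 libraries were made from ribosome-depleted RNA. The authors trimmed the reads with Trimmomatic 0.38, aligned them to mm10 (GRCm38) with STAR 2.6.1a and used BCFtools mpileup to call variants in each library. In genes of the plus strand they retained A-to-G variants, and in genes of the minus strand the complement, T-to-C. The deposited site table holds counts of reference and altered reads and the editing rate as a fraction, which is 0 in a library that does not list a site. The authors counted genes with HTSeq 0.11.2, and the deposited gene counts are raw, with the 5 summary rows left out here. Total counts on genes were 1095488 to 1778732 per library.

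Columns were given to libraries through a table of the study, whose values were equal at 1998 of 1998 sites held. All per-sample columns were used. Sites were tested with edgeR 4.0.16 in R 4.3.3 (altered and reference reads as columns, a coefficient per library, the altered share per group, quasi-likelihood test, Benjamini-Hochberg over all 20243 sites), and genes with filterByExpr, TMM and the same test over condition. DESeq2 1.42.0 was an alternative, on sites with the common dispersion of edgeR because its own could not be fitted. On simulated data edgeR recovered 193 of 200 genes changed 4-fold among 7899, with 4 false calls. On 1367 simulated sites Fisher's test (scipy 1.17.1) recovered 41 of 300 with rates of 0.4 and 0.1, with 0 false calls, and the study's rule 243, with 234 of the unchanged sites also called.

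The CON and TM cultures of a number came from the same mouse. Deviations of the altered share from the group means correlated between them with r = 0.475 over 20243 sites and r = 0.315 over the 935 members. The main edgeR test did not use this pairing, and the test with the mouse as a block did. Members, gene lists and tests were chosen with earlier results of these data known. Named elements were the 12 with the most members, 1 of which is not reported here, and the Sppl2a element of the study. Named sites were those past the edgeR test or else the 12 of smallest p, the 6 deepest and those at the limits. Named hosts were those of these, the 8 with the most members and those in the lists. Sites past the blocked test were named after their values were seen. Sequences were read from GENCODE vM21 transcripts, whose bases were equal at 11228 of 11228 site and transcript comparisons. The 2 Slc22a15 elements were folded with RNAduplex of ViennaRNA 2.7.2. Depth limits of 10 and 20, 5 altered reads, rates of 0.10 to 0.90, other weights and choices of sites, a replicate block, thinning of EC2 TM and leaving out libraries were tried as alternatives.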

Additional observations from a re-analysis of the deposited data

How the results depend on the processing

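The mean CON minus TM difference kept its sign under all 15 alternatives, from 0.0400 to 0.0624 in 14 of them. Over each library's own passing sites it was 0.0194; the limits there leave out sites of low rate by construction. Without 1 mouse it ranged from 0.0426 to 0.0624. The 264 sites with CON > TM in both mice numbered 78 at a depth of 20, 96 with 5 altered reads, 160 with a rate difference of 0.10 and 175 when listed in both libraries, and 831 to 1238 in 1 mouse alone. The 62 with CON < TM numbered 38 at a depth of 10, 17 at a depth of 20, 29 with 5 altered reads, 25 with a difference of 0.10, and 481 to 533 in 1 mouse alone. With the mouse as a replicate block, edgeR called 141 sites and 2 members, both in Fnbp1, in place of 0, and the block called none when reads were summed per repeat element, a test added after seeing the data. DESeq2 called 8 sites of the table. Fisher's exact test at a depth of at least 20 called 1 member in EC2, the Fnbp1 site at chr2:31030932, where fewer sites were tested (0.298% of the members tested, against 0.709% of all sites). Of the host genes, 59 were called in the edgeR test, 124 with the mouse as a replicate block, 32 by DESeq2, and 38 to 48 without 1 library, 38 of them without EC2 CON. The cause of these changes in host calls was not tested. All other results under these alternatives kept their side of the threshold. Read depth limits single sites, and with 2 mice the exact sign permutation of means over mice could not pass 0.05. Nothing says that the read pairs are independent molecules, so intervals cover counting error only.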

Other observations

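Of the members, 199 had a rate over 0.95 in at least 1 library that listed them, in 179 elements. Their mean rate was 0.639 (CON) and 0.55 (TM) in EC1 and 0.692 (CON) and 0.634 (TM) in EC2. The study's rule cannot call such a site in a mouse whose higher library is over 0.95, so no calls are given for them. In vM21, 381 members (12.5%) lay in an exon on the strand of the host gene, 245 of them in retained-intron transcripts, and 60 in an exon of a protein-coding transcript. In those 60 the mean rate was 0.199 (CON) and 0.162 (TM) in EC1 and 0.255 (CON) and 0.205 (TM) in EC2, and 8 (13.3%) were CON > TM and 0 CON < TM in both mice, against 8.59% and 2.08% of the other members and 7.35% and 3.92% of all passing sites. Without these 60 sites the CON minus TM difference was 0.0629 in EC1 and 0.0424 in EC2.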
